A study of Mus musculus with 36 samples.

Results

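The 7 genes described here encode the CDK inhibitors of the mouse, the proteins that hold cyclin-dependent kinases (CDKs) in check. They comprise Cdkn1a, Cdkn1b and Cdkn1c of the Cip/Kip family and Cdkn2a, Cdkn2b, Cdkn2c and Cdkn2d of the Ink4 family. They are all genes of these families, taken by symbol from a table of read counts for 55487 genes, and all 7 passed the filter on low counts that left 15489 genes for testing. Cdkn1c was the one inhibitor whose transcript rose in every genotype that carries a glucocorticoid receptor, between 1.47-fold and 4.27-fold, whereas no Dex call of the other 6 exceeded 1.29-fold. Without Dex, 6 of the 7 differed from the wild type of the same run in GRD+L/D+L, 4 in GRko/ko, 3 in GRD/D and 1 in GRL/L, beside 29.9%, 45.7%, 9.55% and 11.3% of all genes, by up to 2.33-fold, and several of these calls were lost when 1 library was left out.

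Cip/Kip proteins bind whole cyclin-CDK complexes, above all those of CDK2, while Ink4 proteins bind CDK4 and CDK6 and keep D-type cyclins from activating them. Both families keep the retinoblastoma protein (RB) in the form that holds back E2F transcription factors, and so restrain the entry into S phase. Cdkn1a encodes p21, a classic target of p53, Cdkn1b encodes p27, which is controlled largely by protein turnover, and Cdkn1c encodes p57, an imprinted growth restrainer of the embryo and a known glucocorticoid target in several cell types. Cdkn2a encodes both p16 and the p53 activator ARF, Cdkn2b encodes p15, and these neighbours are known for rising as fibroblasts age in culture, while Cdkn2c and Cdkn2d encode p18 and the Ink4 protein p19.

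The samples were primary mouse embryonic fibroblasts (MEFs), grown from E13.5 embryos and treated for 5 h with vehicle or with 1 µM dexamethasone (Dex), a synthetic ligand of the glucocorticoid receptor (GR, gene Nr3c1). They form 36 libraries in 12 groups of 3. Run 1 held 24 libraries, of GRwt/wt, GRD/D, GRD+L/D+L and GRko/ko, and run 2 held 12, of GRwt/wt and GRL/L. The design text states 3 primary cultures for each genotype, each from a different mouse. GRD/D carries a point mutation at the dimer interface of the DNA-binding domain, GRL/L carries one in the ligand-binding domain, GRD+L/D+L carries both, and GRko/ko lacks GR. The labels give strain FVB/NJ for every library, although the study's methods describe the heterozygous parents of its GR-null animals as 129 Sv mice. The L mutation was made by genome editing in GRwt/D zygotes, the D+L line descends from a single pup, and both lines were backcrossed to FVB/NJ. The passage number of the cultures was not given in the sources used here.

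Library totals ranged from 15280166 to 28662608 counts, and expression is given below in CPM, the count of a gene scaled to the size of its library with TMM factors. The targeted gene fits the labels. Nr3c1 stood at 15.9 to 20.4 CPM in the 6 GRko/ko libraries and at 47.8 CPM or more in the other 30. The Dex target Fkbp5 stood at 315.2 to 327.3 CPM in GRwt/wt of run 1 and at 661.8 to 669.1 CPM in GRwt/wt of run 2 under Dex, against 45.5 to 67.4 CPM in the vehicle libraries of all genotypes. In GRko/ko under Dex it stood at 55.6 to 60.9 CPM. The fibroblast markers Col1a1 and Col1a2 were high throughout (at least 5394 and 6413 CPM). Others of the 7 varied between libraries, Col3a1 from 900 to 5609 CPM and Pdgfra from 15.6 to 435 CPM. Macrophage genes also differed between the cultures. Their 7-gene sum in vehicle libraries was 30.5 to 39.0 CPM in GRD+L/D+L, 177.3 to 313.3 in GRwt/wt of run 1, 655.8 to 716.4 in GRD/D and 2564 to 2864 in GRko/ko, and in run 2 it was 454.4 to 477.7 in GRwt/wt and 800.5 to 954.2 in GRL/L. By Xist and 4 Y-linked genes, all libraries of GRwt/wt in run 1 and of GRD/D were female, and all libraries of GRD+L/D+L, GRko/ko, GRwt/wt in run 2 and GRL/L were male. No genotype within a run held both sexes, and whether its libraries came from different mice, as the design text states, was not tested. If they shared a culture, the p-values would describe libraries and not mice. The comparisons of GRD+L/D+L or GRko/ko with GRwt/wt of run 1 or with GRD/D, and of the wild types of both runs, therefore set male against female cultures, and genotype or run cannot be told apart from sex in them. All tests are two-sided edgeR quasi-likelihood F tests with p-values adjusted by Benjamini-Hochberg over all 15489 genes, a gene is called at an adjusted p of 0.05 or less, and ± after a log2 fold change is its standard error (n = 3 libraries in each group).

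Levels between genes can be compared only per length, as CPM per kb of exon. On that scale the vehicle level of GRwt/wt in run 1 was highest for Cdkn1a (180.4), followed by Cdkn2a (95.1) and Cdkn2b (91.6), then Cdkn1c (20.1), Cdkn2d (6.60), Cdkn1b (5.43) and Cdkn2c (3.33). The libraries of Cdkn2a (88.2 to 103) and Cdkn2b (87.2 to 94.9) overlapped, and those of the other neighbours in this order did not. GRwt/wt of run 2 gave another order. Cdkn1a was again first (131), but Cdkn2a had 28.6 CPM per kb and stood behind Cdkn2b (41.8) and Cdkn1c (39.0), whose libraries overlapped. Cdkn1b (12.4), Cdkn2d (7.18) and Cdkn2c (5.67) were again the lowest, and apart from Cdkn2b and Cdkn1c no neighbours overlapped. Run, sex and culture differ together between these wild types, so the 2 orders are given side by side and were not tested.

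**Figure D1:**
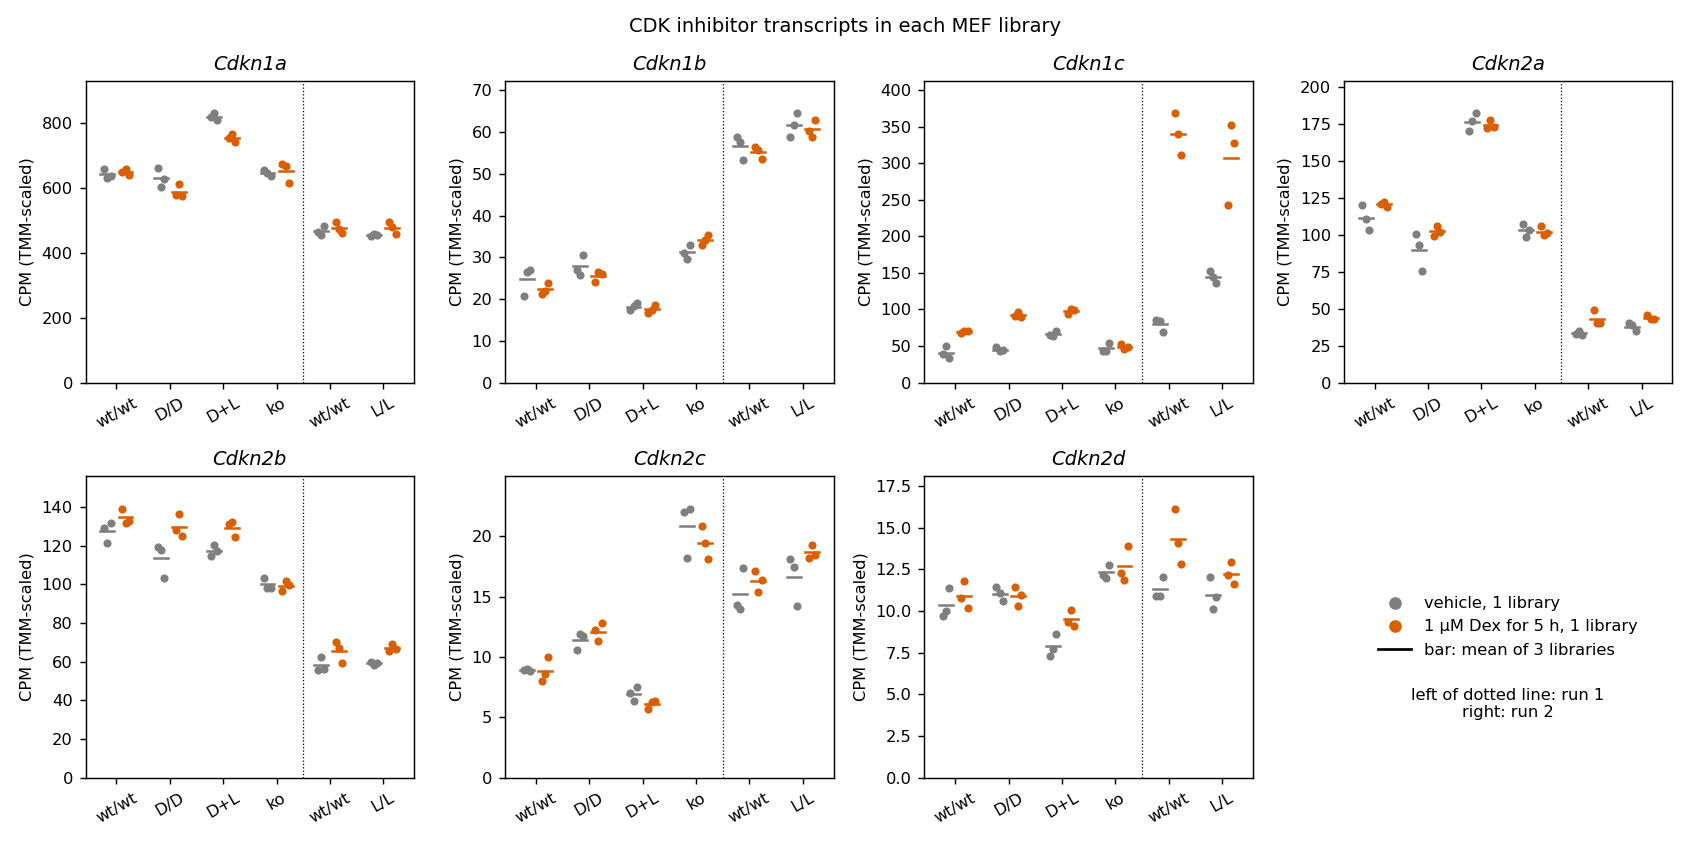
Each panel plots 1 CDK inhibitor, with CPM (TMM-scaled, linear axis from 0) against genotype, 1 point for each library (grey for vehicle, orange for Dex), a bar for the mean of 3 libraries and a dotted line between run 1 and run 2. Cdkn1c is the panel in which orange stands above grey in all genotypes but GRko/ko, and the grey points of GRD+L/D+L stand apart from the wild type in Cdkn1a and Cdkn2a.

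The first question was which inhibitors responded to Dex. Of the 7, the test called 1 in GRwt/wt of run 1 (13.9% of all genes tested), 4 in GRwt/wt of run 2 (31.6%), 2 in GRD/D (11.9%), 1 in GRD+L/D+L (5%), 3 in GRL/L (19.1%) and 0 in GRko/ko (0%). Every call was an increase. Genes raised by Dex made up 7.74%, 14.9%, 5.63%, 3.08% and 8.79% of all genes in the first 5 of these comparisons. In GRko/ko, no inhibitor had an unadjusted p under 0.05 either, against 859 of the 15489 genes, and the DESeq2 test called 0 of the 7 and 1 of all genes. With a further limit of 1 on the absolute log2 fold change, Cdkn1c alone remained among the 7, in GRwt/wt of run 2 (4.49% of all genes), GRD/D (0.981%) and GRL/L (2.56%).

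Cdkn1c (ENSMUSG00000037664, 7:143458339-143461050 in mm10, minus strand) had the largest response of the family. In GRwt/wt of run 1 it stood at 38.9, 49.7 and 34.3 CPM in the vehicle libraries and at 67.6, 71.1 and 69.9 CPM under Dex. All Dex libraries lay above all vehicle libraries, and the log2 fold change was 0.77 ± 0.11 (1.70-fold, adjusted p = 3.10e-06). GRwt/wt of run 2 started at 85.6, 84.1 and 68.9 CPM and reached 368, 340.4 and 311 CPM. There the log2 fold change was 2.09 ± 0.10 (4.27-fold, adjusted p = 4.59e-19), which placed Cdkn1c 113th of the 15489 genes ordered by fold change, against 618th in run 1. The difference between the wild types of run 2 and run 1 in this response was 1.33 ± 0.15 (adjusted p = 5.32e-08), and no other inhibitor passed this test (7.09% of all genes did). Run 2 cultures were male, and their 5 muscle markers summed to 17.4 to 29.1 CPM against 370.0 to 804.4 CPM in run 1. Among these markers Acta1 had the widest range over all libraries (3.82 to 756 CPM). Myod1, Myog and Ttn reached at most 0.304, 0.958 and 0.737 CPM, so the sum says little of muscle cells. Run, sex and any difference in cell makeup cannot be told apart in this difference between the wild types.

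In GRD/D, whose receptor is impaired at the dimer interface, Cdkn1c rose from 48.0, 42.8 and 44.2 CPM to 91.6, 96.4 and 89.4 CPM. The log2 fold change was 1.04 ± 0.11 (adjusted p = 6.37e-09). The difference from GRwt/wt of the same run, 0.28 ± 0.16, did not pass the test (adjusted p = 0.565), and its 95% interval ran from -0.048 to 0.60. No inhibitor passed this test, nor the same test for GRD+L/D+L, beside 3.29% and 3.23% of all genes.

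In the double mutant GRD+L/D+L, Cdkn1c stood at 65.2, 63.3 and 70.0 CPM in vehicle and at 93.5, 100.1 and 98.9 CPM under Dex. The groups did not overlap, with a log2 fold change of 0.56 ± 0.11 (adjusted p = 0.000485, or 0.113 with the formula of the study). This response was -0.21 from that of GRwt/wt (95% interval -0.53 to 0.11, adjusted p = 0.694) and -0.48 from that of GRD/D (95% interval -0.80 to -0.17, adjusted p = 0.234, unadjusted p = 0.00354), so neither difference passed the test over all genes. Without the filter on low counts, the difference from GRD/D passed (adjusted p = 0.000114). Only 0.0775% of all genes differed between the responses of GRD+L/D+L and GRD/D.

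GRko/ko gave 43.7, 43.0 and 53.7 CPM in vehicle and 52.5, 46.3 and 48.6 CPM under Dex. The groups overlapped, the log2 fold change was 0.073 ± 0.11 (95% interval -0.16 to 0.31, adjusted p = 0.985), and it differed from the response of GRwt/wt of run 1 by -0.69 ± 0.16 (adjusted p = 0.00350). No other inhibitor passed the test of this difference, which 8.48% of all genes did. Without the first vehicle replicate of GRwt/wt, Cdkn1b passed it as well (0.40, adjusted p = 0.00846).

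GRL/L was set against GRwt/wt of run 2, both male. Its Cdkn1c libraries stood at 153, 144 and 137 CPM in vehicle, all above the vehicle libraries of the wild type, and at 242, 352 and 328 CPM under Dex, where the first replicate was lower than the others. The log2 fold change was 1.09 ± 0.10 (adjusted p = 2.53e-11), and its difference from that of the wild type was -1.01 ± 0.14 (adjusted p = 8.54e-06). Here too no other inhibitor passed the test of the difference, beside 1.85% of all genes. Without the low Dex replicate the difference was -0.86 (adjusted p = 2.52e-05). Under Dex the GRL/L and wild-type libraries of run 2 overlapped (242 to 352 against 311 to 368 CPM), and the smaller fold change went with a higher vehicle level. In the formula of the study, experiment plus condition, which pools the wild types of both runs, this difference was -0.43 (adjusted p = 0.552), while those of GRD/D and GRD+L/D+L became -0.48 (adjusted p = 0.278) and -0.96 (adjusted p = 0.00659).

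**Figure D2:**
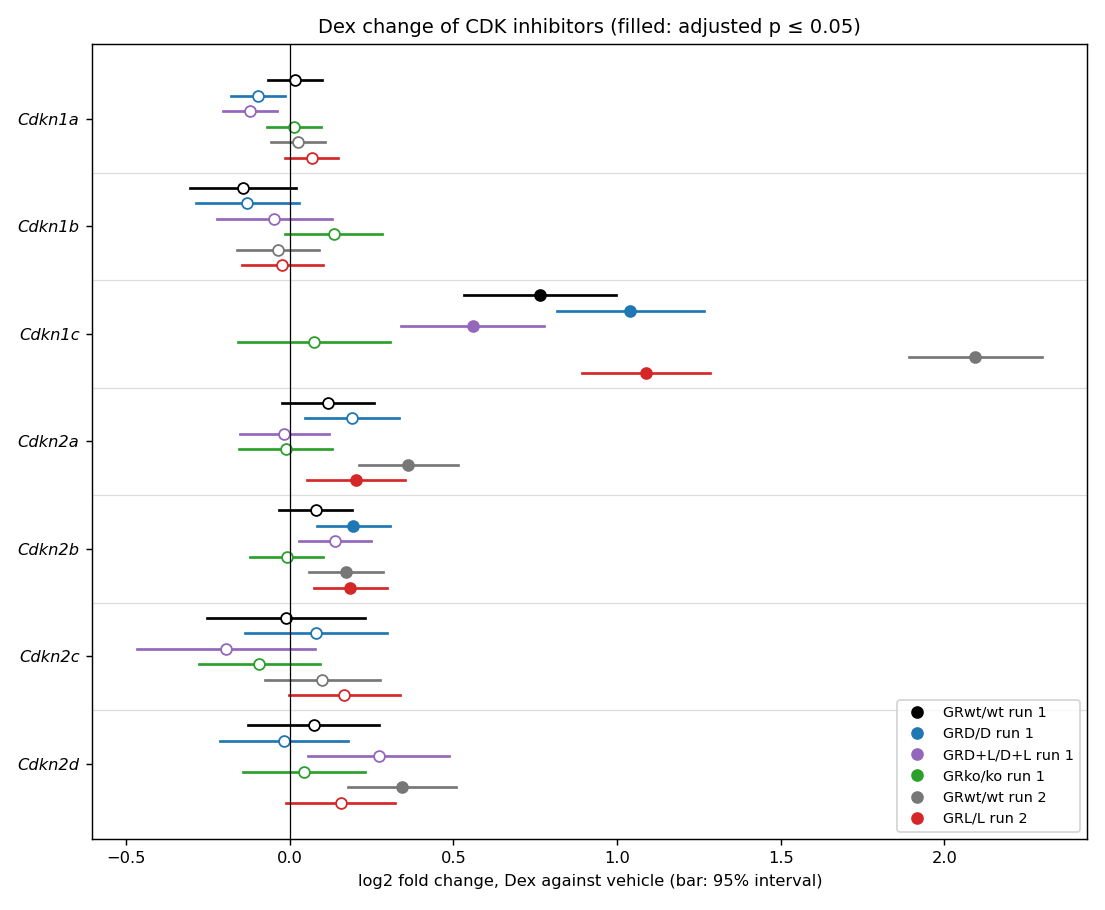
Log2 fold change of Dex against vehicle for each of the 7 inhibitors (rows) in 6 culture sets (colours), with bars for the 95% interval and filled points for an adjusted p of 0.05 or less. The points of Cdkn1c run from 0.073 in GRko/ko to 2.09 in GRwt/wt of run 2, and no filled point of another gene lies above 0.36.

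Cdkn1c overlaps on the opposite strand with Gm44732 over 625 exon bases. Gm44732 had 6 to 66 counts in any library, and whether the counting used the strand was not given in the sources used here. Cdkn1c lies in an imprinted domain of chromosome 7, and of 11 other genes listed for that domain 7 were tested. In the mean Dex change of both wild types, 1 of these 7 was called, Cd81, at 0.078 ± 0.030 on the log2 scale, against 32.5% of all genes. Over the 12 group means of log2 CPM, the 2 genes most like Cdkn1c among 10681 with a mean of at least 5 CPM were Osr1 (Pearson r = 0.979) and Tef (r = 0.954). Osr1, a zinc-finger transcription factor of embryonic mesenchyme, had a log2 fold change under Dex of 0.55 ± 0.076 in GRwt/wt of run 1, 1.02 ± 0.059 in GRwt/wt of run 2 and 0.011 ± 0.075 in GRko/ko. Tef, a clock-controlled bZIP factor, had 0.21 ± 0.054, 0.50 ± 0.048 and -0.072 ± 0.054 in the same sets. In GRD/D, GRD+L/D+L and GRL/L, Osr1 had 0.45 ± 0.071, 0.34 ± 0.071 and 0.54 ± 0.059. Tef had 0.22 ± 0.054, 0.044 ± 0.054 and 0.59 ± 0.047 there. Unlike Cdkn1c, Tef was thus not called in GRD+L/D+L (adjusted p = 0.833), and its change in GRL/L was not below that of the wild type. The 12 groups are not independent of run and culture, and the likeness is a description.

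The other Cip/Kip members did not pass the test in any Dex comparison. Cdkn1a (ENSMUSG00000023067, 17:29090976-29100727, plus strand), the p21 gene, stood at 656, 629.7 and 637 CPM in vehicle and 649, 657 and 639 CPM under Dex in GRwt/wt of run 1. In run 2 the wild type had 465, 454 and 483 CPM and 493, 472 and 460.1 CPM. Both pairs overlapped, and the 95% intervals of the log2 fold change were narrow, -0.066 to 0.10 and -0.057 to 0.11. GRko/ko (655, 644 and 636 CPM, then 672, 666 and 615 CPM) and GRL/L (451, 458 and 455 CPM, then 493, 479 and 456 CPM) overlapped as well. In GRD/D the values were 659.9, 601 and 625 CPM and 578, 611 and 575 CPM. In GRD+L/D+L they were 819, 829 and 808 CPM and 753, 766 and 739.7 CPM, with no overlap, a log2 fold change of -0.12 ± 0.040 and an adjusted p of 0.0823, which the DESeq2 test put at 0.0332.

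Cdkn1b (ENSMUSG00000003031, 6:134920401-134925513, plus strand), the p27 gene, had 20.6, 26.6 and 26.9 CPM in vehicle and 21.3, 21.9 and 23.9 CPM under Dex in GRwt/wt of run 1. The first vehicle library was below the others. Without it, the log2 fold change of -0.14 ± 0.080 (adjusted p = 0.281) became -0.26 and passed the test (adjusted p = 0.0223). Without vehicle replicate 2 or 3 it was -0.090 (adjusted p = 0.630) or -0.073 (adjusted p = 0.696). GRwt/wt of run 2 gave 58.9, 57.7 and 53.3 CPM and 56.5, 55.6 and 53.6 CPM, and GRL/L gave 58.7, 61.6 and 64.5 CPM and 60.3, 58.7 and 62.8 CPM. Neither pair separated. GRD/D had 26.99, 25.9 and 30.7 CPM and 24.0, 26.5 and 25.9 CPM, GRD+L/D+L had 17.3, 18.4 and 19.0 CPM and 16.7, 17.5 and 18.6 CPM, and in GRko/ko the Dex libraries (33.0, 34.3 and 35.4 CPM) lay just above those of vehicle (30.9, 29.7 and 32.9 CPM) with an adjusted p of 0.917.

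Among the Ink4 genes, Dex raised Cdkn2a, Cdkn2b and Cdkn2d in some sets, by at most 1.29-fold. Cdkn2a (ENSMUSG00000044303, 4:89274471-89294653, minus strand) stood at 33.2, 35.0 and 32.5 CPM in vehicle and 48.8, 40.4 and 40.3 CPM under Dex in GRwt/wt of run 2. The groups did not overlap, and the log2 fold change was 0.36 ± 0.075 (adjusted p = 0.000211). The fourth Dex replicate was the highest and stood furthest from its group mates over all genes, and without it the change was 0.27 (adjusted p = 0.00731). GRL/L had 40.2, 38.7 and 35.0 CPM and 45.4, 42.9 and 42.7 CPM, a log2 fold change of 0.20 ± 0.074 at an adjusted p of 0.0488. Leaving out any one of its 6 libraries except the first vehicle replicate took this call away (adjusted p up to 0.254), as did a fit of the run 2 libraries alone (adjusted p = 0.0514) and the formula of the study (adjusted p = 0.0752).

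In run 1, Cdkn2a passed the test in no genotype. GRwt/wt stood at 120.2, 111 and 103 CPM and 121, 122 and 119 CPM, and GRD/D at 101, 92.9 and 75.7 CPM and 99.0, 106 and 102 CPM. For GRD/D the log2 fold change was 0.19 ± 0.071 (adjusted p = 0.0770), and without the first vehicle replicate it was 0.28 (adjusted p = 0.00951), but without vehicle replicate 3 it was 0.080 (adjusted p = 0.488). GRD+L/D+L (171, 177 and 182 CPM, then 172, 178 and 173 CPM) and GRko/ko (108, 98.3 and 103 CPM, then 106, 99.8 and 101 CPM) overlapped between treatments. The responses of the 2 wild types differed by 0.25 ± 0.10 in Cdkn2a, which did not pass the test (adjusted p = 0.169).

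Cdkn2b (ENSMUSG00000073802, 4:89306299-89311039, minus strand) is separated from Cdkn2a by 11645 bases. In GRwt/wt of run 2 it stood at 55.9, 62.2 and 56.2 CPM and 70.2, 67.1 and 59.1 CPM, with overlapping groups and a log2 fold change of 0.17 ± 0.056 (adjusted p = 0.0152). Leaving out Dex replicate 4 or 5, or vehicle replicate 4 or 6, ended this call (adjusted p up to 0.140). GRL/L had 59.6, 58.5 and 59.4 CPM and 65.8, 69.3 and 66.7 CPM, without overlap, and a log2 fold change of 0.18 ± 0.055 (adjusted p = 0.0140). The call ended without Dex replicate 2 or vehicle replicate 2 (adjusted p up to 0.0751). GRD/D likewise separated, from 119, 118 and 103 CPM to 128, 136 and 125 CPM, with 0.19 ± 0.055 (adjusted p = 0.0150). That call ended without Dex replicate 2 or vehicle replicate 3 (adjusted p up to 0.127). In GRD+L/D+L the Dex libraries (131, 132 and 124 CPM) also lay above those of vehicle (115, 120.2 and 117 CPM), but the adjusted p was 0.180. GRwt/wt of run 1 (129, 121 and 132 CPM, then 139, 132 and 133 CPM) and GRko/ko (103, 98.2 and 98.2 CPM, then 96.7, 102 and 99.4 CPM) overlapped.

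Because the table counts reads per gene, p16 and ARF, which start at different first exons of Cdkn2a, cannot be separated in it. The stretches around the starts of both Cdkn2a transcripts and of Cdkn2b are shown because these adjoining genes were both called in GRwt/wt of run 2 and in GRL/L. The sequences are from RefSeq (GRCm38.p6), 300 bases on the minus strand, from 250 bases before the start to 50 bases into the transcript. The windows are chr4:89294570-89294869 for the upstream start of Cdkn2a, chr4:89282143-89282442 for its downstream start and chr4:89310983-89311282 for Cdkn2b. Capitals mark a match to TTTNGCGC, an E2F-like pattern in which N is any base. All motifs were searched on both strands.
Cdkn2a, upstream start: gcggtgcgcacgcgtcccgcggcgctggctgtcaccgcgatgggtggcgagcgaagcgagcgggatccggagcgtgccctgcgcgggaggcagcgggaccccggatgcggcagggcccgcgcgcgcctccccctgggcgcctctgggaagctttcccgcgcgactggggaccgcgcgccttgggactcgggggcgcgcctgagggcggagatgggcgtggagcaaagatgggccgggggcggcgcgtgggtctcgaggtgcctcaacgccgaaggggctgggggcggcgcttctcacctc
Cdkn2a, downstream start: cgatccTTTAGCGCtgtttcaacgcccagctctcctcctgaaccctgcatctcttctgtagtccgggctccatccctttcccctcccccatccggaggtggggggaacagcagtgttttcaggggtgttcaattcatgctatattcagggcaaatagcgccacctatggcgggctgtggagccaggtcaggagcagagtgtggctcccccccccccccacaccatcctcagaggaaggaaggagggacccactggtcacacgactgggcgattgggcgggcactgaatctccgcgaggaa
Cdkn2b: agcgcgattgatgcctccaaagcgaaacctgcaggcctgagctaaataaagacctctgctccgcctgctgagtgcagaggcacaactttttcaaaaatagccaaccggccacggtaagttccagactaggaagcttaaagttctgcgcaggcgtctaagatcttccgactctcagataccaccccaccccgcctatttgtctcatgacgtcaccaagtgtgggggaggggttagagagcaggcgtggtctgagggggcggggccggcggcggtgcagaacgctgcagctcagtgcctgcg
Of 32851 RefSeq promoters of this length, 1.38% held a match to TTTNGCGC, and among the members only the downstream start of Cdkn2a did. The palindromic glucocorticoid response element, searched as GNACA and TGTNC with 3 bases between them, matched 0.475% of promoters and none of the 9 windows of 6 members. The hexamer AGAACA, which can overlap an arm of the palindrome, was present in 19.0% of promoters and in 1 member window, that of Cdkn2c, at position -222 from its start. RefSeq windows were not at hand for Cdkn1c, and sites outside these 300 bases were not searched.

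Cdkn2c (ENSMUSG00000028551, 4:109660876-109667189, minus strand), the p18 gene, was called in no Dex comparison. Its levels in GRwt/wt were 8.95, 8.97 and 8.89 CPM and 7.98, 8.62 and 10.0 CPM in run 1, and 14.3, 14.0 and 17.3 CPM and 17.1, 15.4 and 16.4 CPM in run 2. GRL/L had 18.1, 17.5 and 14.2 CPM in vehicle and 18.3, 19.3 and 18.5 CPM under Dex, without overlap, at an adjusted p of 0.183. The standard error of the log2 fold change of Cdkn2c reached 0.13 in GRD+L/D+L. The libraries of GRD+L/D+L stood at 7.02, 6.40 and 7.48 CPM in vehicle and 5.67, 6.25 and 6.33 CPM under Dex, without overlap, at -0.19 (adjusted p = 0.598). GRD/D (10.6, 11.9 and 11.8 CPM, then 12.2, 11.4 and 12.8 CPM) and GRko/ko (22.0, 18.2 and 22.3 CPM, then 20.9, 19.4 and 18.1 CPM) overlapped between treatments.

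Cdkn2d (ENSMUSG00000096472, 9:21288410-21291407, minus strand) was called in GRwt/wt of run 2 alone. It stood there at 10.9, 10.9 and 12.1 CPM in vehicle and 16.2, 14.1 and 12.8 CPM under Dex, and the log2 fold change was 0.34 ± 0.081 (adjusted p = 0.000975). The Dex libraries all lay above the vehicle libraries, and replicate 4 was again the highest. Without it the change was 0.25 (adjusted p = 0.0233). The difference from the response of GRwt/wt in run 1 (9.73, 10.0 and 11.4 CPM, then 10.8, 11.8 and 10.2 CPM) was 0.27 ± 0.13 and did not pass the test (adjusted p = 0.246). GRD+L/D+L separated as well, from 7.29, 7.74 and 8.64 CPM to 9.36, 10.1 and 9.11 CPM, with 0.27 ± 0.11 and an adjusted p of 0.166. GRD/D (11.5, 11.1 and 10.6 CPM, then 11.4, 10.3 and 11.0 CPM), GRko/ko (12.2, 12.0 and 12.8 CPM, then 12.3, 11.8 and 13.9 CPM) and GRL/L (12.0, 10.1 and 10.8 CPM, then 12.2, 12.9 and 11.6 CPM) overlapped.

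Likeness over the 12 group means was very high for the Ink4 members called in the mean Dex change of both wild types. The closest genes were Ccdc107 (r = 0.991) and Akt1s1 (r = 0.990) for Cdkn2a, Aff1 (r = 0.994) and Mrtfa (r = 0.992) for Cdkn2b, and Fabp5 (r = 0.942) and Mcmbp (r = 0.939) for Cdkn2d. The 12 points come from both runs, and levels of Cdkn2a and Cdkn2b differ mainly between the runs, so these values describe the runs as much as Dex. Mrtfa, an actin-regulated coactivator, rose under Dex in GRwt/wt of run 1 (0.38 ± 0.079) and run 2 (0.30 ± 0.083), while neither Ccdc107 nor Akt1s1 was called in any of the 6 sets.

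The second question was whether the genotypes differed before Dex. Against GRwt/wt of the same run, the test called 3 of the 7 inhibitors in GRD/D (9.55% of all genes), 6 in GRD+L/D+L (29.9%), 4 in GRko/ko (45.7%) and 1 in GRL/L (11.3%). The directions were mixed, with 1 higher and 2 lower in GRD/D, 3 higher and 3 lower in GRD+L/D+L, 3 higher and 1 lower in GRko/ko, and 1 higher in GRL/L. In bulk samples, fewer cells of a type and less RNA per cell cannot be told apart.

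In GRD+L/D+L, Cdkn1a, Cdkn1c and Cdkn2a were high and Cdkn1b, Cdkn2c and Cdkn2d were low. Cdkn1a stood at 819, 829 and 808 CPM against 656, 629.7 and 637 CPM in the wild type, a log2 fold change of 0.35 ± 0.040 (adjusted p = 1.05e-08). Cdkn2a stood at 171, 177 and 182 CPM against 120.2, 111 and 103 CPM, or 0.66 ± 0.069 (adjusted p = 1.21e-09), and was the inhibitor with the greatest difference from GRD/D (0.98 ± 0.070, adjusted p = 5.85e-14). Cdkn1c stood at 65.2, 63.3 and 70.0 CPM against 38.9, 49.7 and 34.3 CPM, or 0.69 ± 0.12 (adjusted p = 1.10e-05). In all 3 genes the double mutant libraries lay above every library of the other run 1 genotypes in vehicle.

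The low members of GRD+L/D+L were Cdkn1b, with 17.3, 18.4 and 19.0 CPM against 20.6, 26.6 and 26.9 CPM (-0.44 ± 0.083, adjusted p = 7.32e-05), and Cdkn2d, with 7.29, 7.74 and 8.64 CPM against 9.73, 10.0 and 11.4 CPM (-0.40 ± 0.10, adjusted p = 0.00340). Cdkn2c was lower too, with 7.02, 6.40 and 7.48 CPM against 8.95, 8.97 and 8.89 CPM (-0.36 ± 0.13, adjusted p = 0.0268). The call of Cdkn2c was lost without any one of the 6 libraries except replicate 3 of GRD+L/D+L (adjusted p up to 0.114). Cdkn2b was the one member not called (-0.12 ± 0.055, adjusted p = 0.104). In the same libraries all 10 proliferation genes listed, Mki67 (-0.78 ± 0.080) among them, were lower than in the wild type, with a median of -0.52, and 10 of 15 genes of the p53 pathway were higher, with a median of 0.26 (all genes -0.0062). The macrophage sum was lowest in these libraries as well, and the part of either in the levels of the inhibitors was not tested.

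The upstream start of Cdkn1a is shown because p21 is the best known p53 target and was high together with the p53 list. The window is chr17:29090729-29091028 on the plus strand, again RefSeq GRCm38.p6, and capitals mark a match to the p53 response element at 17:29090928-29090947, with at most 1 mismatch, outside the core letters.
Cdkn1a, upstream start: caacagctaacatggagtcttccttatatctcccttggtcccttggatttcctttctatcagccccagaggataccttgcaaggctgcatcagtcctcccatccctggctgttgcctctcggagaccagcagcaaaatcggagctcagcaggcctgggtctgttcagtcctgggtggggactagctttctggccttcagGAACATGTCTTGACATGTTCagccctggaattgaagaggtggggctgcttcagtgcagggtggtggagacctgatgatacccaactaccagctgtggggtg
Such a match was found in 0.0548% of the 32851 promoters, or 18 of them. The window at the downstream start of Cdkn1a, chr17:29093519-29093818, held no match, and counts per gene do not tell the starts apart. The p53 target with the greatest difference in GRD+L/D+L was Perp (1.75 ± 0.089), while in GRko/ko, where Cdkn1a overlapped the wild type (655, 644 and 636 against 656, 629.7 and 637 CPM, adjusted p = 0.874), Perp was lower (-0.62 ± 0.10) and Sesn1 higher (1.33 ± 0.11). Cdkn1a overlaps AC167363.2 on the opposite strand over 273 exon bases, and that gene had 0 to 27 counts in any library.

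**Figure D3:**
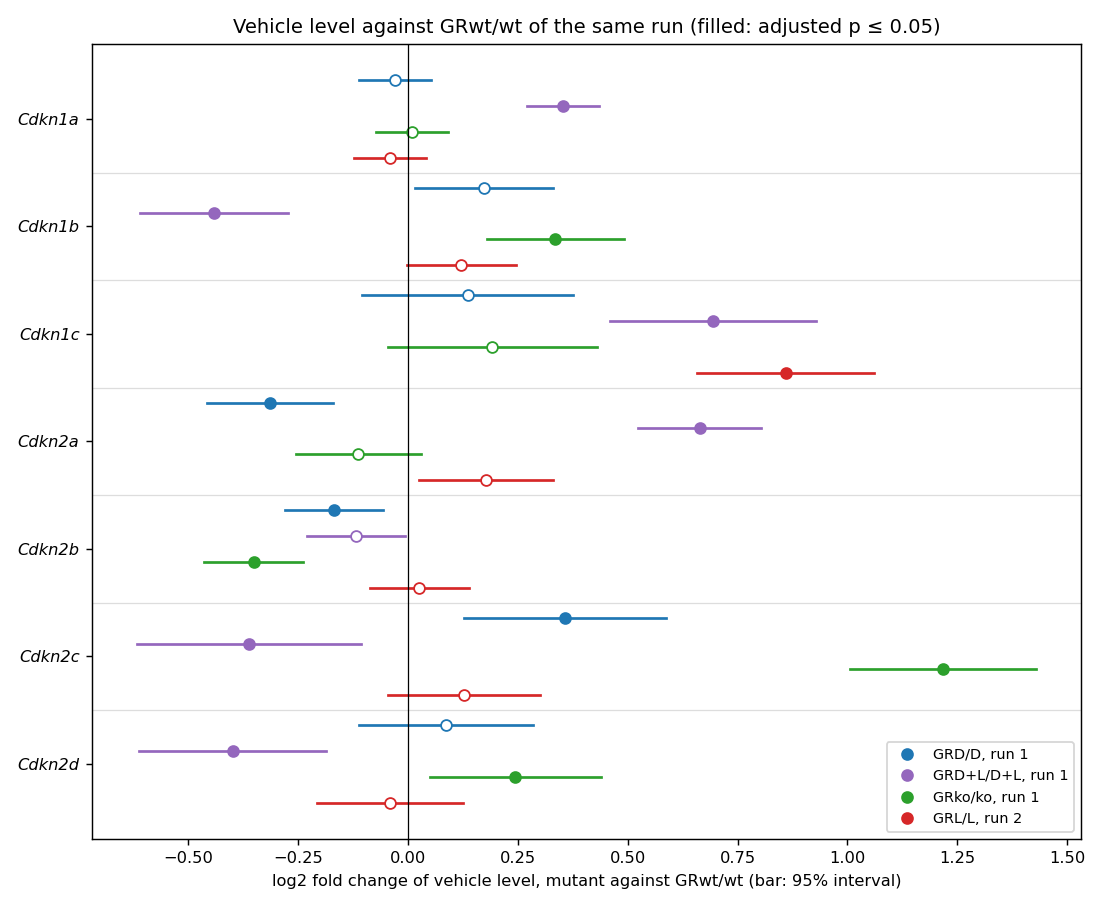
Log2 fold change of the vehicle level of each inhibitor (rows) in 4 mutants (colours) against GRwt/wt of the same run, with bars for the 95% interval and filled points for an adjusted p of 0.05 or less. The largest value is that of Cdkn2c in GRko/ko (1.22), and GRD+L/D+L has filled points on both sides of 0.

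In GRko/ko, Cdkn2c was the inhibitor that differed most. Its vehicle libraries stood at 22.0, 18.2 and 22.3 CPM against 8.95, 8.97 and 8.89 CPM in the wild type, a log2 fold change of 1.22 ± 0.10 (2.33-fold, adjusted p = 2.22e-12). The groups were far apart, and GRko/ko was also above GRD/D (0.86 ± 0.10, adjusted p = 2.62e-09) and above GRD+L/D+L, which is likewise male (1.58 ± 0.11, adjusted p = 6.05e-15). Strain may differ in each of these comparisons, and its part was not tested. Cdkn1b was higher than in the wild type, with 30.9, 29.7 and 32.9 CPM against 20.6, 26.6 and 26.9 CPM (0.34 ± 0.076, adjusted p = 0.000395), and without the low first wild-type library the value was 0.22 (adjusted p = 0.0177). Cdkn2d was higher by 0.24 ± 0.10 (adjusted p = 0.0356), a call lost without any one of the 6 libraries except replicate 3 of the wild type (adjusted p up to 0.156). The DESeq2 test (adjusted p = 0.0848), its size factors (0.0539) and no filter on low counts (0.118) also left Cdkn2d uncalled. Cdkn2b was lower, with 103, 98.2 and 98.2 CPM against 129, 121 and 132 CPM (-0.35 ± 0.055, adjusted p = 1.73e-06).

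Macrophage and proliferation genes were ordered like some of these members in run 1. In run 1 the order of the group means of Cdkn1b, Cdkn2c and Cdkn2d, from GRD+L/D+L over GRwt/wt and GRD/D to GRko/ko, was the order of the macrophage sum given above. It was also the order of the mean log2 CPM of the 10 proliferation genes, which was 5.20 to 5.24, 5.68 to 5.74, 5.88 to 5.91 and 5.92 to 5.99 in these vehicle groups. The last step was split within that list. Against GRD/D, 4 of the 10 genes were higher in GRko/ko and 3 lower, with a median log2 fold change of 0.022. Cdkn2b did not follow the order, with group means of 117, 127, 113 and 99.9 CPM. Each of the 7 macrophage markers was above 0 in every library. The part of either list in these differences was not tested. GRko/ko also had the most cartilage transcripts (178.6 to 534.6 CPM summed over 5 genes in vehicle, against 18.8 to 30.5 CPM in the other groups of run 1).

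**Figure D4:**
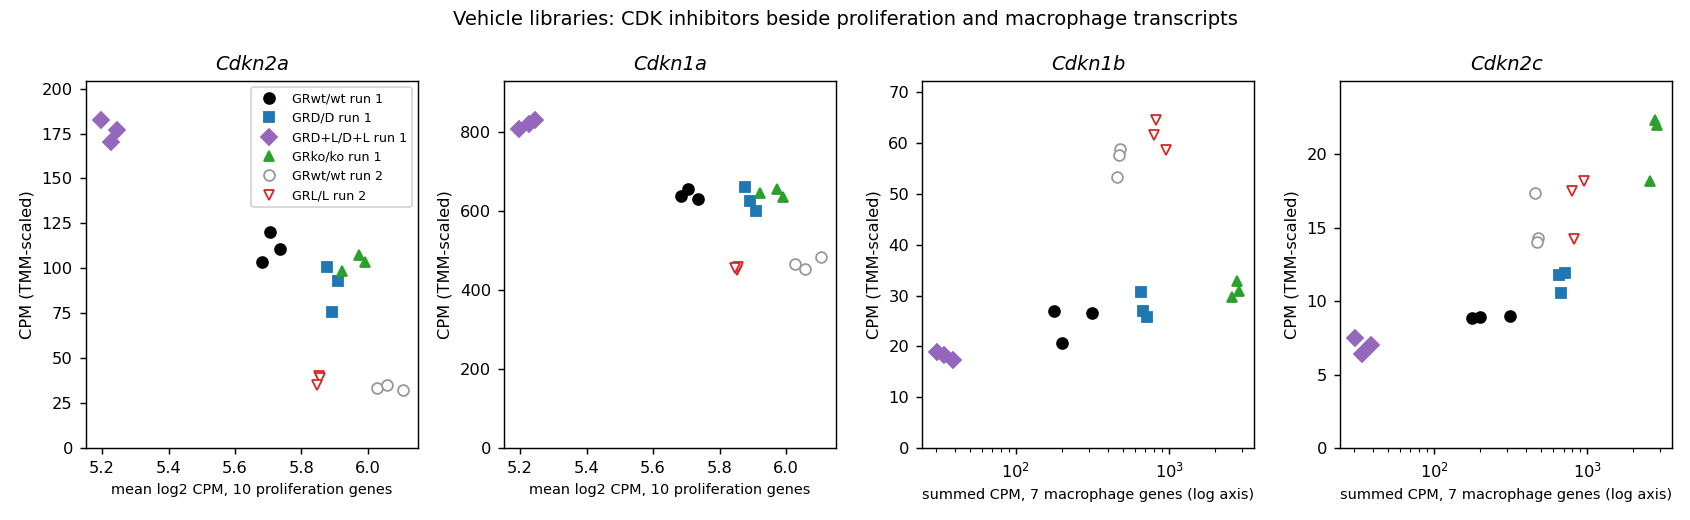
CPM of 4 inhibitors in the 18 vehicle libraries (1 point each) against the mean log2 CPM of 10 proliferation genes (left pair) or the summed CPM of 7 macrophage genes on a log axis (right pair), by genotype and run. GRD+L/D+L has the lowest value on both x axes, and in run 1 Cdkn1b and Cdkn2c are ordered by genotype as the macrophage sum is.

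GRD/D, of the same sex as its wild type, differed less. Cdkn2a stood at 101, 92.9 and 75.7 CPM against 120.2, 111 and 103 CPM, a log2 fold change of -0.31 ± 0.071 (adjusted p = 0.00236). Replicate 3 of GRD/D was the lowest, and without it the value was -0.20 (adjusted p = 0.0316). Cdkn2b, with 119, 118 and 103 CPM against 129, 121 and 132 CPM, was lower too (-0.17 ± 0.055, adjusted p = 0.0445). That call was lost without the same GRD/D replicate, or without replicate 1 or 3 of the wild type (adjusted p up to 0.228), and also without the filter on low counts (0.0766) and with the formula of the study (0.0635). Cdkn2c was higher, with 10.6, 11.9 and 11.8 CPM against 8.95, 8.97 and 8.89 CPM (0.36 ± 0.11, adjusted p = 0.0373), and this call was lost without any one library except the first GRD/D replicate (adjusted p up to 0.148) and by the DESeq2 test (adjusted p = 0.0506).

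In GRL/L only Cdkn1c differed in vehicle, with 153, 144 and 137 CPM against 85.6, 84.1 and 68.9 CPM (0.86 ± 0.10, 1.81-fold, adjusted p = 9.09e-08). Cdkn1c was higher without Dex in GRL/L and in GRD+L/D+L, while in GRD/D (0.14 ± 0.12) and GRko/ko (0.19 ± 0.12) the difference from the wild type did not pass the test. In GRko/ko it passed without replicate 2 of the wild type (0.35, adjusted p = 0.0227) and without the filter on low counts (adjusted p = 0.0253). The formula of the study, with its pooled wild type, gave 0.53 in GRL/L (adjusted p = 0.0353), 1.09 in GRD+L/D+L (adjusted p = 1.41e-05), 0.59 in GRko/ko (adjusted p = 0.00978) and 0.53 in GRD/D (adjusted p = 0.0608), values of like size outside GRD+L/D+L. The values without any one library were 0.77 to 0.92 in GRL/L and 0.58 to 0.85 in GRD+L/D+L. The other 6 inhibitors of GRL/L lay within 0.18 of the wild type on the log2 scale, the value of Cdkn2a (95% interval 0.026 to 0.33, adjusted p = 0.130). Beside the higher Cdkn1c, GRL/L had a higher macrophage sum than its wild type and a lower mean of the proliferation genes (5.85 to 5.86 against 6.03 to 6.11 as log2 CPM), and their part was not tested.

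Comparing the mutants of run 1 with each other, 6 of the 7 inhibitors differed between GRD+L/D+L and GRD/D (37.5% of all genes), 3 between GRko/ko and GRD/D (48.5%) and 7 between GRko/ko and GRD+L/D+L (51.2%). The first and second of these pairs set male against female cultures, and the last is of the same sex, while strain may differ in both pairs with GRko/ko. In the last pair Cdkn1a (-0.34 ± 0.040), Cdkn1c (-0.50 ± 0.11), Cdkn2a (-0.78 ± 0.069) and Cdkn2b (-0.23 ± 0.055) were lower in GRko/ko, and Cdkn1b (0.78 ± 0.080), Cdkn2c and Cdkn2d (0.64 ± 0.10) were higher, all with an adjusted p of at most 0.000574. Of the calls between GRko/ko and GRD/D, that of Cdkn2a (0.20 ± 0.071, adjusted p = 0.0176) was lost without replicate 3 of GRD/D or replicate 1 of GRko/ko (adjusted p up to 0.298). Cdkn1b (0.16 ± 0.074, adjusted p = 0.0702) passed without replicate 3 of GRD/D (adjusted p = 0.0158) and with at least 10 counts asked of every library (adjusted p = 0.0454).

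The partners of the inhibitors in the cell cycle were compared in the mean Dex change of both wild types, in which 4 of the 7 inhibitors were called (32.5% of all genes). Of these 4, Cdkn2b lost its call without Dex replicate 4 (adjusted p = 0.0520), and Cdkn1b gained one without vehicle replicate 1 (-0.15, adjusted p = 0.0151). Of 9 G1 cyclins and kinases, 2 rose and 2 fell. Cyclin D1 (Ccnd1, 0.59 ± 0.033) and cyclin D3 (Ccnd3, 0.39 ± 0.029), which the Ink4 proteins counter at CDK4 and CDK6, were higher, and cyclin D2 (Ccnd2, -0.23 ± 0.039) and Cdk2 (-0.17 ± 0.041) were lower. Of 7 RB and E2F genes, 3 fell, namely Rb1 (-0.30 ± 0.072), Rbl1 (-0.30 ± 0.067) and E2f3 (-0.12 ± 0.035), and none rose. Of the ubiquitin ligase subunits that mark p27 for degradation, Skp2 fell (-0.15 ± 0.047) and Cks1b was not called. Protein levels were not measured.

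The p53 pathway list went both ways under Dex, with 6 of 15 genes higher and 4 lower. Pmaip1 (1.13 ± 0.045), which encodes the apoptosis inducer Noxa, and Sesn1 (0.91 ± 0.072) rose, Gdf15 (-0.94 ± 0.16) and Trp53 itself (-0.13 ± 0.037) fell, and Cdkn1a was not among the called genes (0.020 ± 0.029). Among 11 regulators of the Ink4 locus, Ets2 (0.35 ± 0.049), Id1 (0.25 ± 0.050) and Rnf2 (0.12 ± 0.039) rose. Tbx3 (-0.21 ± 0.062), Dmtf1 (-0.16 ± 0.042) and Bmi1 (-0.13 ± 0.043) fell. Of 10 proliferation genes, 5 fell by small amounts, such as Top2a (-0.17 ± 0.031), Mki67 (-0.14 ± 0.054) and Pcna (-0.13 ± 0.046), and none rose. In the separate runs, the test called 0 of the proliferation and 0 of the RB and E2F genes in GRwt/wt of run 1, and 4 and 3 of them, all lower, in run 2, and whether the runs differed in these lists was not tested. Each share of called genes in these lists stands beside 32.5% of all genes.

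In vehicle, genes of the same lists differed beside 29.9% of all genes in GRD+L/D+L, 45.7% in GRko/ko, 9.55% in GRD/D and 11.3% in GRL/L. In GRD+L/D+L, 1 of 9 G1 cyclins and kinases was higher, Ccnd1 (0.62 ± 0.047), and 2 were lower, Ccne2 most (-0.57 ± 0.11). Of 7 RB and E2F genes, Rb1 was higher (0.33 ± 0.11) and Rbl1 lower (-0.69 ± 0.11). Of 11 Ink4 regulators, 1 was higher and 2 were lower. The higher one was Tbx2 (0.99 ± 0.11), a known repressor of Cdkn2a, and Ets2 fell most (-0.52 ± 0.079). Tbx2 was also higher in GRko/ko (0.60 ± 0.11) and GRL/L (0.32 ± 0.10) and lower in GRD/D (-0.50 ± 0.12). Of the 7 tested genes from the Cdkn1c domain, 3 were higher in GRD+L/D+L, Slc22a18 by 1.17 ± 0.26, and 1 was lower. In GRko/ko, E2f2 (1.74 ± 0.19) and Cdk6 (0.97 ± 0.092), a kinase that p18 binds, were higher. E2f1 (-0.41 ± 0.058), Ets1 (-0.53 ± 0.046) and Ccne1 (-0.25 ± 0.067) were lower. Of 10 proliferation genes, 6 were higher there, Mki67 most (0.72 ± 0.076), and 2 were lower, Mcm2 most (-0.25 ± 0.048). In GRD/D, 4 of 10 proliferation genes were higher, Ccnb1 by 0.41 ± 0.075, and in GRL/L 6 of 10 were lower, Top2a at -0.25 ± 0.043.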

How the data were processed

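RNA sequencing (TruSeq libraries, NextSeq) was carried out by the authors and gave 36 libraries from MEF cultures. Per the labels and the submitters' processing notes, reads were aligned to mm10 with HISAT2 2.1.0, uniquely mapped reads were kept and featureCounts 2.0.0 gave the deposited gene counts, 55487 whole-number values for each library. The annotation release and strand setting were not given in the sources used here. Replicate numbers were read from the titles. Of the gene identifiers, 55141 had a symbol. The filter of edgeR on low expression left 15489 genes with 99.9% of counts. Counts were scaled by TMM and fitted with edgeR 4.0.16 (limma 3.58.1, R 4.3.3) by quasi-likelihood, with 1 term for each of the 12 groups, on all 36 libraries. GRD/D, GRD+L/D+L and GRko/ko were set against GRwt/wt of run 1 and GRL/L against GRwt/wt of run 2. Standard errors were derived from the F statistic and are approximate. p-values were adjusted by Benjamini-Hochberg and called at 0.05. The same code was tested on simulated counts. The biological coefficient of variation was 0.0513. At 15280166 to 28662608 counts in a library, counting error weighs most on Cdkn2c and Cdkn2d. Their lowest counts were 89 and 111, both in GRD+L/D+L libraries.

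Alternatives were DESeq2 1.42.0, its size factors, no filter and a filter of at least 10 counts in every library, a replicate block, only the libraries of the run compared, the study's formula, and leaving out each library. The members and gene lists were chosen with earlier results of these data known. Genes named were the 7 members, called list genes with the greatest change in each direction, and the 2 genes most like each member called in the mean of both wild types. No 2 libraries were copies (library pairs within groups differed by 1.38 to 5.95 times the sampling noise). The design text gives 3 cultures for each genotype, the labels do not tie a vehicle library to a Dex library of the same culture, and p-values measure the spread between these libraries only. Figures were drawn with matplotlib 3.10.9.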

Additional observations from a re-analysis of the deposited data

Results flagged for a closer look

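The Dex response of Cdkn1c differed between culture sets by a test of the difference itself in 3 comparisons. It differed between GRko/ko and GRwt/wt of run 1 by -0.69 on the log2 scale (edgeR adjusted p = 0.00350), and all 3 GRwt/wt Dex libraries were above their vehicle libraries while those of GRko/ko overlapped. The difference between GRL/L and GRwt/wt of run 2 was -1.01 (adjusted p = 8.54e-06), with a higher vehicle level in GRL/L. Between GRwt/wt of run 2 and GRwt/wt of run 1 it was 1.33 (adjusted p = 5.32e-08), where run and sex cannot be told apart. Without any one library these values ran from -0.85 to -0.58, from -1.12 to -0.86 and from 1.17 to 1.44, and all stayed past the threshold.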

How the results depend on the processing

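Of the 61 results of single genes that passed the threshold in at least 1 fit or concern Cdkn1c, 789 of 851 refits kept direction and side of the threshold, 47 lost a call, 13 gained one and 2 changed sign. The remaining 79 results were called in no fit, and their sign changed in 62 of 1221 refits, at values between -0.058 and 0.061. The number of inhibitors called in GRD+L/D+L under Dex was 2 by the DESeq2 test and 0 by the study's formula, which pools the wild types of both runs and so shares 1 estimate between them. By that formula, the number with a different Dex response was 1 for GRD+L/D+L and 0 for GRL/L, and Cdkn1c in GRD/D against GRwt/wt turned to -0.48. Without the filter on low counts, 1 inhibitor, Cdkn1c, differed in response between GRD+L/D+L and GRD/D (adjusted p = 0.000114), and Cdkn2a was called in GRD/D under Dex (adjusted p = 0.0365). The cause was not tested.

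Replicate numbers did not pair the samples. The deviations of same-numbered vehicle and Dex libraries correlated at -0.079 to 0.116 over 18 pairs, 1 of them over 0.1, and 7 of 18 libraries correlated best with their own number. With the number as a block, 1 inhibitor was called in vehicle GRD/D, where Cdkn2b (-0.18, adjusted p = 0.0718) and Cdkn2c (0.35, adjusted p = 0.0551) lost their calls, as did Cdkn2d in vehicle GRko/ko (adjusted p = 0.0509). No block was possible between GRL/L and GRwt/wt in vehicle, which are numbered differently.

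Leaving out single libraries moved the number of inhibitors called under Dex to 1 to 2 in GRwt/wt of run 1, 3 to 4 in run 2, 3 to 5 in the mean of both, 1 to 3 in GRD/D and 1 to 3 in GRL/L. It moved the number differing in response between GRko/ko and GRwt/wt to 1 to 2, and in vehicle to 1 to 3 in GRD/D, 5 to 6 in GRD+L/D+L, 3 to 4 in GRko/ko and 2 to 3 between GRko/ko and GRD/D. Cdkn1c between the last pair, not called, ran from -0.055 to 0.11. Depth limits Cdkn2c and Cdkn2d most, at 6 to 22 CPM.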
